A study of Mus musculus with 24 samples.

Results

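Transcripts that are typical of fat cells were followed in the gastrocnemius of mice fed an obesogenic diet with or without rosiglitazone, an anti-diabetic thiazolidinedione. The genes were Adipoq, Lep, Retn, Cfd, Plin1, Cidec, Cidea, Fabp4 and Pck1, and every probe whose name or accession in the scanner files gives 1 of them was taken. Of these 9 genes, 8 had a probe, 11 of the 41174 different probes on the array, and all 11 were bright enough in both channels to be among the 15958 probes tested. No spot carried the name or accession of Pck1, the cytosolic enzyme that supplies glycerol for triglyceride in fat cells, so it has no value. Male C57BL/6N mice were placed at 3 months of age for 8 weeks on a corn oil-based high-fat diet of 35% lipids (cHF; 8 mice). In the cHF+F diet (8 mice) a concentrate of n-3 LC-PUFA with 46% DHA and 14% EPA took the place of 15% of the lipids, and the cHF+ROSI diet (8 mice) held 10 mg rosiglitazone per kg. All mice were fasted for 10 hours and re-fed Chow overnight before dissection, so none was killed on its high-fat diet. Each 2-colour array carried 1 mouse in Cy5 and an equal mixture of RNA in Cy3, the same pool on every array. Per the labels that pool also held mice fed 100 mg rosiglitazone per kg diet, which were not analysed here, so a log2 ratio of 0 means the level of the pool and not that of the cHF mice.

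Rosiglitazone is a ligand of PPARγ, the nuclear receptor that drives fat cell differentiation and switches on most of the genes followed here. White fat cells store triglyceride in 1 large droplet and release hormones called adipokines. Muscle fibres express these genes little or not at all, while fat cells lie between the fibres and around the muscle. In RNA of a whole muscle, fewer fat cells and less RNA per fat cell cannot be told apart.

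All 12 muscle genes examined (Ckm, Acta1 and Myh4 among them) were well above background in Cy5 on all 24 arrays. So were all 7 nerve, 8 endothelial and 7 stromal genes tested and 5 of 8 liver genes, so this test does not tell tissues apart. Of the adipocyte transcripts, 6 were well above background in Cy5 on every array by their brightest probe, and Retn and Lep were so on 23 of 24. None was saturated on any array. On 23 arrays, 30.4% to 61.3% of all spots passed the same test in Cy5, and on the array of cHF+ROSI replicate 4 it was 91.1%. Each of 8 slides held 1 array of each diet in a fixed order, so diet and place on the slide cannot be told apart.

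The adipokine Adipoq, which encodes adiponectin, differed widely between mice and hardly between diets. Its probe lies at 23072837 to 23072896 of chromosome 16 (mouse build mm8, as for all probes). In the cHF mice its log2 ratio ran from -1.41 over a median of -0.54 to 0.92, in the cHF+F mice from -1.53 over -0.57 to 1.29, and in the cHF+ROSI mice from -1.07 over -0.31 to 0.49. The 3 diets overlapped almost completely, and in each of them 3 mice lay above the pool and 5 below. The difference cHF+ROSI minus cHF was 0.01 (SE 0.36, n = 8 per group; limma adjusted p 0.999), with a 95% interval from -0.73 to 0.75. On the 8 slides, the cHF+ROSI mouse was above the cHF mouse on 3 and below it on 5. From the lowest to the highest of the 24 mice Adipoq spanned 7.08-fold. Its SD within diets was 0.80 on the log2 scale, larger than that of 99.6% of all tested probes, whose median SD was 0.15.

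Lep, which encodes leptin, the hormone that reports fat stores to the brain, was measured at 29023244 to 29023303 of chromosome 6 by the mean of 10 spots. It was the dimmest of the adipocyte transcripts in Cy5, at 4.86 times the background. Its log2 ratio ran from -0.87 over -0.60 to 0.88 in the cHF mice, from -1.23 over -0.83 to 1.41 in the cHF+F mice and from -0.93 over -0.26 to 0.34 in the cHF+ROSI mice. The ranges overlapped, and cHF+ROSI differed from cHF by -0.02 (SE 0.32; limma adjusted p 0.999; 95% interval -0.67 to 0.63). Retn, which encodes resistin, had a pair of probes on chromosome 8, of which the brighter spans 3656107 to 3656928. By that probe it ran from -0.55 over -0.16 to 0.72 in the cHF mice, from -0.99 over -0.16 to 1.18 in the cHF+F mice and from -0.52 over -0.10 to 0.51 in the cHF+ROSI mice. The cHF+ROSI minus cHF difference was -0.0014 (SE 0.22; limma adjusted p 1.00) by the brighter and -0.16 (SE 0.23; limma adjusted p 0.996) by the dimmer probe. These probes moved together over the mice (r = 0.97). Cfd encodes adipsin, a complement protease that fat cells secrete, and its probe lies at 79295686 to 79295745 of chromosome 10. It ran from -1.09 over -0.35 to 0.47 in the cHF mice, from -1.12 over 0.04 to 0.85 in the cHF+F mice and from -0.88 over -0.23 to 0.57 in the cHF+ROSI mice. Cfd had the largest difference of the 8 genes between cHF+F and cHF, 0.28 (SE 0.27; limma adjusted p 0.939; 95% interval -0.28 to 0.84), which the spread between mice covers.

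Among the proteins of the fat droplet, Plin1, the perilipin that coats the droplet and guards it from lipases, was listed under its older name Plin at 79594739 to 79594798 of chromosome 7. Its log2 ratio ran from -1.50 over -0.84 to 0.73 in the cHF mice, from -1.52 over -0.53 to 0.65 in the cHF+F mice and from -1.33 over -0.29 to 0.67 in the cHF+ROSI mice. Although the median was highest in the cHF+ROSI mice, the ranges were alike and the difference from cHF was 0.16 (SE 0.33; limma adjusted p 0.996; 95% interval -0.52 to 0.83). Without cHF replicate 1 that difference was 0.012. Cidec, which lets droplets of white fat cells fuse, lies at 113390476 to 113390535 of chromosome 6 and varied most. It ran from -1.76 over -1.16 to 0.83 in the cHF mice, from -2.25 over -1.09 to 1.18 in the cHF+F mice and from -1.39 over -0.79 to 0.31 in the cHF+ROSI mice. That is 10.8-fold from the lowest to the highest mouse, and its SD within diets of 0.99 was above that of 99.8% of tested probes. The diets again overlapped, and cHF+ROSI minus cHF was 0.07 (SE 0.44; limma adjusted p 0.998; 95% interval -0.85 to 0.98). Cidea, a relative of Cidec that is highest in brown fat cells, had the smallest SD within diets of the 8 genes, 0.35. Its log2 ratio ran from -0.59 over -0.15 to 0.52 in the cHF mice, from -0.63 over -0.07 to 0.01 in the cHF+F mice and from -1.05 over -0.20 to 0.38 in the cHF+ROSI mice. cHF+ROSI minus cHF was -0.15 (SE 0.16; limma adjusted p 0.996; 95% interval -0.48 to 0.18).

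Fabp4, the fatty acid carrier of fat cells and of capillary endothelium and a direct PPARγ target, had 3 probes on chromosome 3. The brightest, at 10186983 to 10187043, ran from -0.48 over -0.29 to 0.48 in the cHF mice, from -0.58 over -0.41 to 0.56 in the cHF+F mice and from -0.89 over -0.25 to 0.35 in the cHF+ROSI mice. Its cHF+ROSI minus cHF difference, -0.18 (SE 0.18; limma adjusted p 0.996; 95% interval -0.56 to 0.20), lay within the spread between mice. The second probe gave -0.16 and the dimmest 0.0033. The array of cHF+ROSI replicate 3 stood apart for bright probes: the median log2 ratio of its 296 brightest probes was -0.70, and -0.01 with a narrower normalization span of 0.1. That of cHF+ROSI replicate 2 was next lowest, at -0.25 and -0.03. Fabp4 in the mouse of replicate 3 read -0.82 with the wider and -0.20 with the narrower span. In the mouse of replicate 2, the lowest for Fabp4, it read -0.89 and -0.71. The cHF+ROSI minus cHF difference of Fabp4 was -0.10 with the narrower span.

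**Figure D1:**
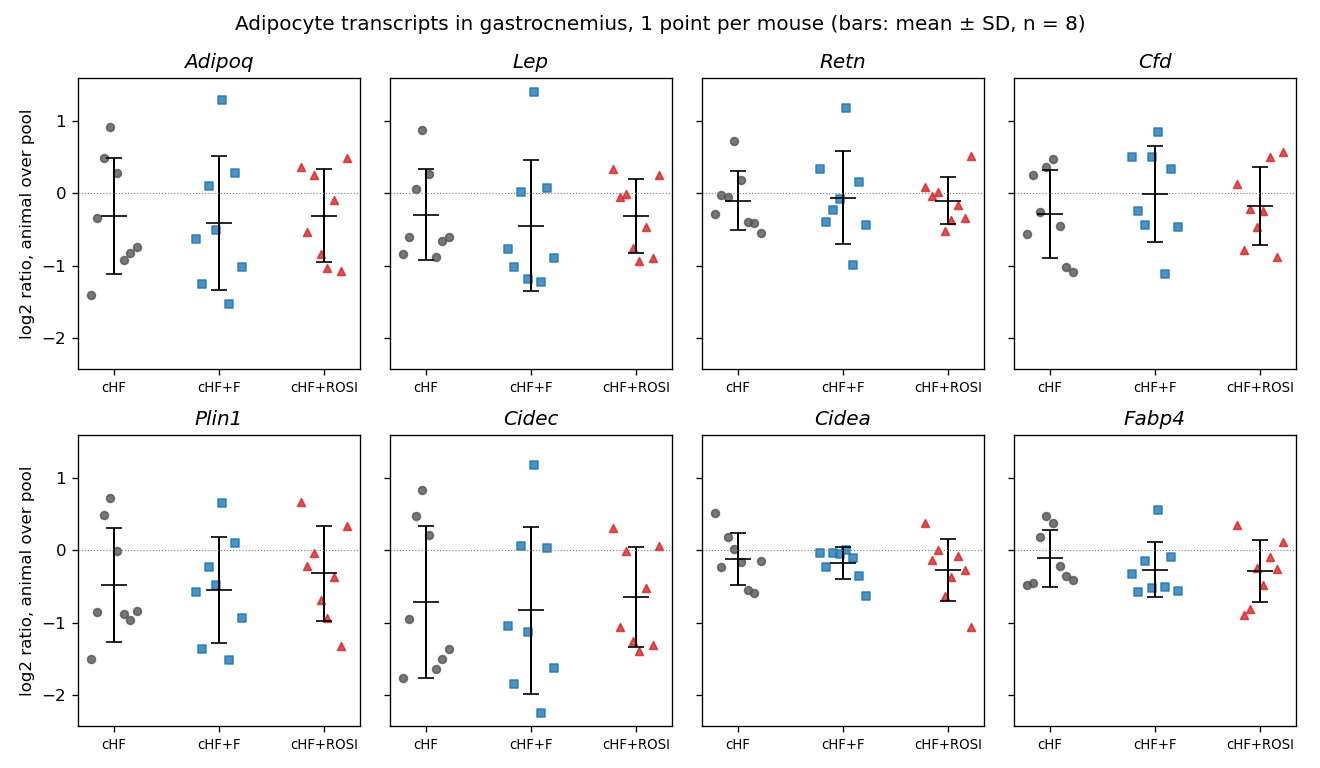
Log2 ratio of the mouse over the common pool (vertical axis) for 8 adipocyte transcripts, 1 point per mouse, by diet, with bars for the mean ± SD of 8 mice. The 3 diets overlap in every panel, and the span between mice is widest for Cidec, 3.43 on the log2 scale from lowest to highest.

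No adipocyte transcript was called in any of the 3 comparisons at a limma adjusted p under 0.05, where the share of all tested probes called was 0%. None had an unadjusted p under 0.05 either, while 4.7% of all probes had one for cHF+ROSI against cHF (1.69% higher, 3.01% lower), 6.86% for cHF+F against cHF (2.85% higher, 4% lower) and 6.67% for cHF+F against cHF+ROSI (4.02% higher, 2.65% lower). The smallest unadjusted p among the 8 genes was 0.333, 0.320 and 0.497 in these comparisons in turn. In the cHF+ROSI mice 4 of the 8 genes had a higher and 4 a lower mean than in cHF, with a median log2 difference of 0.0045 beside -0.0086 over all probes. In the cHF+F mice 2 had a higher and 6 a lower mean than in cHF, with a median of -0.08 beside 0.00063, and single genes ran from -0.16 (Fabp4) to 0.28 (Cfd). For cHF+F minus cHF+ROSI the median was -0.04 beside 0.0084, with 4 higher and 4 lower, from -0.23 (Plin1) to 0.16 (Cfd). Compared slide by slide, no gene was higher or lower in cHF+ROSI than in cHF on more than 5 of 8 slides, and on single slides Cidec differed by -2.10 to 2.08. The first and second of these comparisons share the cHF mice. The median of cHF+ROSI minus cHF was -0.13 in Cy5 alone and -0.19 without slides 1 to 3, whose arrays were dimmer, the latter an alternative added after seeing the data. That of cHF+F minus cHF+ROSI was 0.07 and 0.15 in these, while that of cHF+F minus cHF stayed below 0 under each other processing and was above 0 without single arrays, up to 0.09 without cHF replicate 4. With the processed signals of the scanner software Lep read -0.67 for cHF+F minus cHF (limma adjusted p 0.85) and -0.60 for cHF+F minus cHF+ROSI (limma adjusted p 0.94). For Adipoq, Lep and Cidec the intervals of cHF+ROSI minus cHF reach past 0.6 in both directions, so changes of that size could not have been told from the spread between mice.

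**Figure D2:**
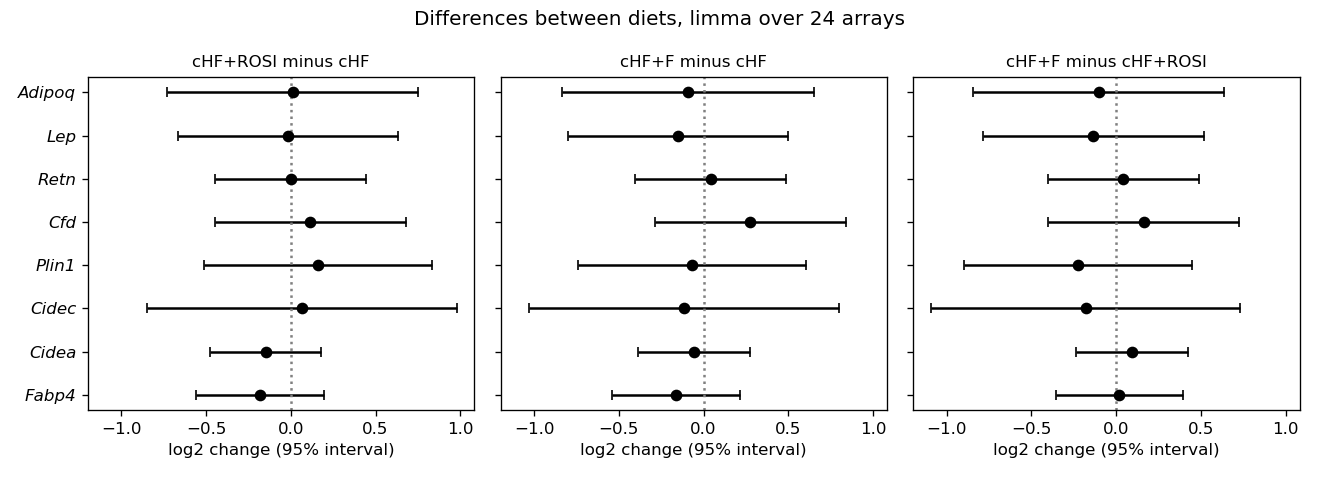
Log2 difference between diets (horizontal axis) with its 95% interval from limma for the brightest probe of each of 8 adipocyte transcripts, in 3 comparisons over 24 arrays. Every interval includes 0, and Cidec has the widest.

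What the adipocyte transcripts did show was a common order of the mice. The cHF+F mouse of replicate 6 was the lowest of all 24 for Adipoq, Lep, Retn, Cfd, Plin1 and Cidec, and the cHF+F mouse of replicate 5 was the highest for Adipoq, Lep, Retn, Cfd, Cidec and Fabp4. These extremes were fed the same diet. With diet means removed, Pearson r over the 24 mice between Adipoq and Cidec was 0.98 and Spearman rho 0.96. For Adipoq and Plin1 r was 0.96, for Adipoq and Lep 0.93 and for Adipoq and Retn 0.85. For each of these 4 pairs the permutation p of r was 1e-05, the smallest that 100000 resamples within diets can give (adjusted p 3.5e-05 over 28 pairs). Adipoq and Fabp4 gave 0.74 (rho 0.63; permutation p 0.00016, adjusted 0.00032), and Adipoq and Cfd 0.71 (rho 0.71; permutation p 0.00049, adjusted 0.000857). When the 2 mice with the most extreme Adipoq values were left out, r was 0.98 with Cidec, 0.95 with Plin1, 0.90 with Lep, 0.76 with Retn, 0.61 with Fabp4 and 0.64 with Cfd.

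Of the 28 pairs of the 8 genes, the 21 without Cidea had r between 0.55 (Cfd and Lep) and 0.98, and all 21 had an adjusted permutation p of at most 0.0123. The 10 pairs among Adipoq, Plin1, Cidec, Lep and Retn had r from 0.80 to 0.98. Apart from Adipoq, these are the 4 genes with r above 0.8 with it in the same data. High r among them is therefore in part set by that choice. The 7 pairs with Cidea had r between 0.08 and 0.24 and adjusted permutation p between 0.296 and 0.722, so none passed. Spearman rho gave the same counts, 21 pairs passing and none of the 7 with Cidea.

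The order held within each diet for the closest pair. Adipoq and Cidec had r of 0.98 in the cHF mice (n = 8; exact permutation p 2.48e-05), 0.99 in the cHF+F mice (exact permutation p 9.92e-05) and 0.98 in the cHF+ROSI mice (exact permutation p 0.000595). Adipoq and Fabp4 had 0.90, 0.93 and 0.37 in the same order, and the last gave an exact permutation p of 0.345. Over all mice, r of Fabp4 with Adipoq was 0.85 without cHF+ROSI replicate 3 and 0.87 with the normalization span of 0.1. Of the variance within diets, slide means held 26.5% for Adipoq, 34.6% for Cidec and 24.1% for Lep, beside a median of 53.5% over all tested probes. With slide means removed the median r of the 28 pairs was 0.78, against 0.73 before, and r of Adipoq with Cidec was 0.99. Without slides 1 to 3 the median r was 0.90.

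**Figure D3:**
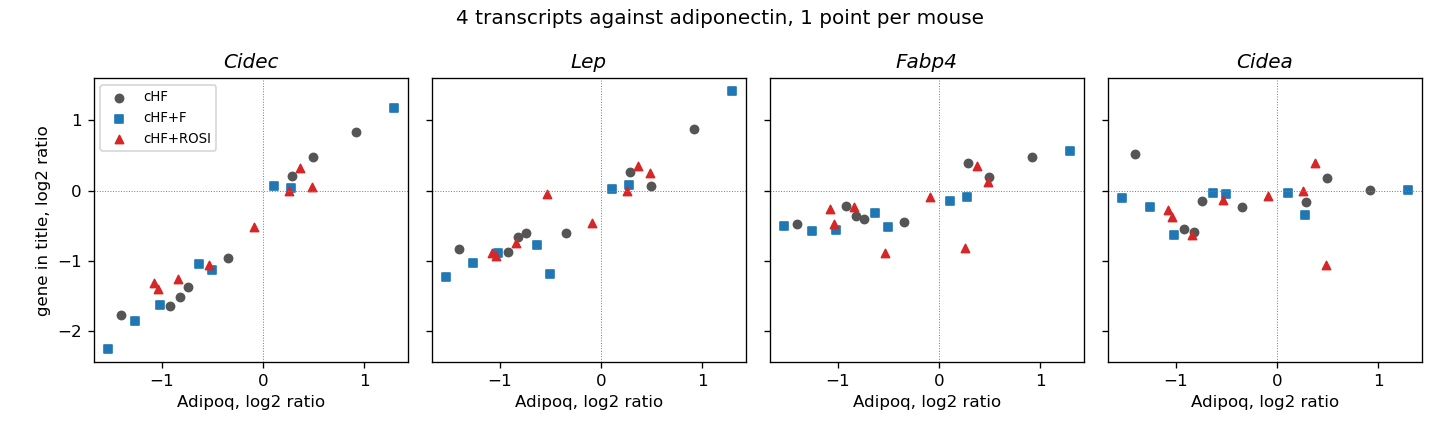
Log2 ratio of Cidec, Lep, Fabp4 and Cidea (vertical axis) against that of Adipoq (horizontal axis), 1 point per mouse, with colour and shape for the diet. Cidec follows Adipoq closely (r = 0.98), 1 cHF+ROSI mouse lies below the line of Fabp4 at an Adipoq value of 0.25, and Cidea shows no such line (r = 0.16).

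The ratios of 1 array share its hybridization and its reference, so the channels were also taken alone. In Cy5 alone, quantile normalized between arrays, the SD within diets was 0.92 for Adipoq and 1.06 for Cidec, and these correlated at 0.98. Their SD in Cy3 alone was 0.30 and 0.17. Over the 8 genes the SD in Cy3 alone ran from 0.09 for Retn (0.54 in Cy5) to 0.44 for Cfd (0.75 in Cy5). For Fabp4 it was 0.21, beside 0.34 in Cy5. The pool was the same RNA on every array, yet in Cy3 alone Adipoq correlated at 0.93 with Cidec, 0.95 with Plin1, 0.93 with Cfd and 0.83 with Cidea, and at -0.61 with Fabp4, -0.57 with Lep and -0.48 with Retn. The median over the 28 pairs was -0.33 in Cy3 alone and 0.61 in Cy5 alone. Between the Adipoq ratio and its own Cy3 signal r was 0.20, and over the 8 genes this r ran from -0.35 (Fabp4) to 0.44 (Cidea). What part the Cy3 variation has in the ratios was not tested. In Cy3 alone no adipocyte transcript was called between the arrays of any diets, and none had an unadjusted limma p under 0.05, beside 1.87%, 0.495% and 0.119% of all probes in the 3 comparisons. With slides as a block, 3 of the 8 (Adipoq, Cfd and Cidea) had one for the cHF+ROSI arrays against the cHF arrays, with Cy3 differences of -0.20, -0.22 and -0.16, where 21.4% of all probes had one. In the other comparisons with the block none of the 8 had one, beside 1.53% and 2.57%.

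Cidea stood apart from the other 7 genes in other ways too. Slide means held 59.7% of its variance within diets, from 0.29 on slide 1 to -0.61 on slide 8. For the other 7 genes this share was at most 34.6% (Cidec). The median over all tested probes was 53.5%, so by this share Cidea was closer to the typical probe than they were. The Cy5 and Cy3 signals of Cidea rose and fell together over the arrays (r = 0.80), beside 0.09 to 0.60 for the other 7 genes. Against 12 muscle genes its ratio had a median r of -0.64, with 11 of the 12 below 0. That median was -0.34 with slide means removed and 0.03 in Cy5 alone, so its sign depended on the channel used.

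To place the white fat genes among all others, every gene with a bright enough probe was ranked by its r with Adipoq. Cidec was the closest of 10890 genes, Plin1 was number 3, Lep 11, Retn 38, Fabp4 67, Cfd 95 and Cidea 3246. The median r over all genes was 0.03, and 48 genes (0.441%) were above 0.8, 4 of them adipocyte transcripts of the list. The 10 closest genes outside the list were Prkar2b (0.96), Slc1a5 (0.96), Phgdh (0.95), Tmem45b (0.95), Nnmt (0.94), Apcdd1 (0.94), Smoc1 (0.93), Sncg (0.93), Glb1l2 (0.93) and Ifi27l2a (0.92). Prkar2b is the regulatory subunit of protein kinase A through which fat cells respond to catecholamines, Phgdh opens serine synthesis, Slc1a5 imports glutamine and Nnmt methylates nicotinamide. None of the 10 was called between cHF+ROSI and cHF, with log2 differences from -0.03 (Phgdh) to 0.52 (Ifi27l2a; limma adjusted p 0.996).

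Other genes of the fat cell were taken from lists. Of 24 further adipocyte genes 16 were bright enough, among them Aoc3, Npr3, Trarg1 and Mest, and 8 were not: Adig, Adrb3, Acvr1c, Lgals12, Hcar1, Tshr, Ces1f and Orm1. Their median r with Adipoq was 0.71, with 11 of 16 above 0.5 and 8 above 0.8. None of the 16 was called under rosiglitazone (5 higher, 11 lower in mean, median -0.05). The differences ran from -0.33 for Plin4 (unadjusted limma p 0.0141) and -0.19 for Cpa3 (0.0416) to 0.14 for Slc36a2 and 0.21 for Sncg. Plin4 and Cpa3 followed Adipoq less than most of the list, with r of 0.43 and 0.24. Whether fat cells were the source of Plin4 and Cpa3 RNA here was not tested. Of 13 further adipokines 9 were tested, and Rarres2 (chemerin; 0.92), Hp (haptoglobin; 0.91) and Angptl4 (0.67) were closest to Adipoq. Among them the rosiglitazone differences were -0.76 for Hp (unadjusted limma p 0.0415) and -0.35 for Angptl4 at the low end and 0.31 for Nampt (0.000403) at the high end, none called. By its own test on these arrays, the study lists Hp by the same probe as lower under rosiglitazone.

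Among 13 tested regulators of fat cell formation, the master regulators Cebpa (0.91) and Pparg (0.77) followed Adipoq, while the median r was 0.08. Pparg itself differed by 0.24 between cHF+ROSI and cHF (SE 0.09; unadjusted limma p 0.015, adjusted p 0.996), beside 0.30 for Srebf1 (unadjusted limma p 0.00948), -0.11 for Cebpd (0.615) and -0.24 for Ebf2 (0.00098). None was called. In the list of 25 lipid storage genes, many of which muscle fibres also express, the median r was 0.27, with Scd1 (0.81), Lipe (0.76) and Mgll (0.70) highest. Their rosiglitazone differences ran from -0.21 for Acsl1 and Dgat2 to 0.13 for Elovl6 and 0.18 for Slc27a1, and none was called. The brown fat list held no gene with r above 0.5 (8 tested, median 0.12). It includes Cpt1b, which the study calls the muscle form of its enzyme. In whole muscle the list therefore cannot show whether brown fat cells were present. Ucp1, the heat-producing channel that defines brown fat cells, was well above background in Cy5 on 2 of 24 arrays, so its r of 0.11 and its rosiglitazone difference of 0.04 describe a signal near background. The differences were 0.32 for Zic1, -0.29 for Cox7a1 and -0.41 for Fabp3, none called. The list of adipokine receptors and Appl1, an adaptor that binds the adiponectin receptors, was at a median r of -0.18 (4 tested), with rosiglitazone differences of 0.09 for Adipor1, -0.0073 for Appl1, -0.0075 for Cdh13 and -0.04 for Adipor2.

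Markers of other tissues were set against Adipoq in the same way. The 7 nerve markers tested had r between 0.51 and 0.60, and their summed level, as a mean log2 ratio, ran from -0.68 to 0.75 in the cHF, -0.34 to 0.30 in the cHF+F and -0.29 to 0.82 in the cHF+ROSI mice. All 7 had a higher mean in cHF+ROSI than in cHF (5 of 7 in Cy5 alone) and none was called, with differences from 0.08 (Mag) and 0.12 (Sox10) to 0.46 (S100b) and 0.50 (Mbp). Stromal (median r 0.32), macrophage (0.21) and endothelial markers (0.15) had 1 gene above 0.5, Icam2. Muscle (-0.19), blood (-0.17) and liver markers (-0.09) had none except Trf (0.82) and Cyp2e1 (0.57) of the liver list. All 8 liver genes tested had a higher mean in cHF+ROSI than in cHF, from 0.21 (Trf) and 0.29 (Apoa1) to 0.91 (Alb) and 1.51 (Mup1), and none was called. All 8 also had a higher mean in cHF+F than in cHF, with a median of 0.40 beside 0.62 for cHF+ROSI, and none was called. Their mean log2 ratio ran from -2.03 to -0.41 in the cHF, -1.32 to 0.65 in the cHF+F and -1.78 to 1.17 in the cHF+ROSI mice. By its own test the study lists Cyp2e1, and Mup1 by another probe, as higher under rosiglitazone. The 12 muscle genes had cHF+ROSI minus cHF differences from -0.28 (Ckm) and -0.26 (Mb) to -0.07 (Tnnt3) and -0.06 (Tnni2), none called. Their mean log2 ratio was lowest, at -0.90, on the array of cHF+ROSI replicate 3 that stood apart for bright probes. All 12 were lower with that array, and 7 were lower and 5 higher without it or with the normalization span of 0.1, as alternatives added after seeing the data. The 8 endothelial genes had a lower mean in cHF+ROSI than in cHF (7 of 8 in Cy5 alone), from -0.42 (Cldn5) and -0.23 (Kdr) to -0.05 (Icam2) and -0.04 (Pecam1), as had Hba-a1 (-0.49) and Alas2 (-0.32) of the blood list. All 8 endothelial genes also had a lower mean in cHF+F than in cHF, with a median of -0.12 beside -0.14 for cHF+ROSI. For cHF+ROSI minus cHF, stromal genes ran from -0.13 (Pdgfrb) and -0.12 (Fap) to -0.01 (Cd34) and 0.04 (Dcn), and macrophage genes from -0.23 (Lyz2) and -0.10 (Cd163) to -0.0090 (C1qa) and 0.02 (C1qb), again with no call. The mean log2 ratio of the adipocyte transcripts themselves ran from -0.79 to 0.62 in the cHF, -1.16 to 0.89 in the cHF+F and -0.80 to 0.33 in the cHF+ROSI mice. What part the nerve RNA has in the common order of the mice was not tested.

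**Figure D4:**
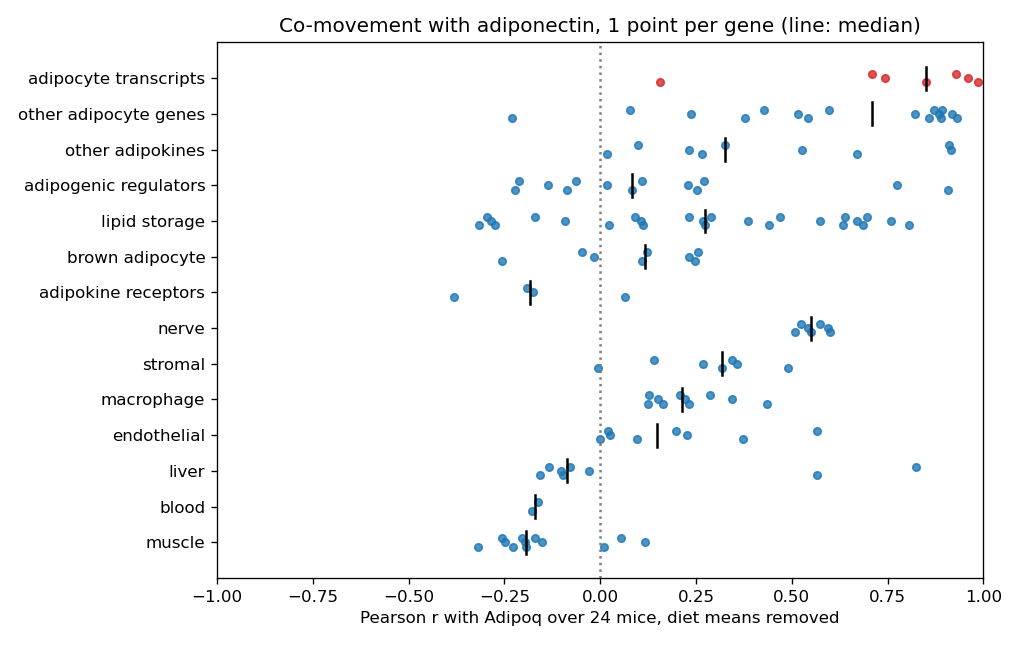
Pearson r with Adipoq over 24 mice, diet means removed (horizontal axis), 1 point per gene, by gene list, with a line at the median of each list. The adipocyte transcripts other than Cidea lie at 0.71 or above, and the 7 nerve markers sit between 0.51 and 0.60.

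Since Adipoq, Cidec, Lep and Plin1 moved together most closely, the 250 bases before their transcription start are shown (RefSeq; build GRCm38.p6). Letters in capitals mark TTGCNNAA, the core of a C/EBP site, or CCAAT, searched on both strands. They are Adipoq at chr16:23146286-23146535 (plus strand), Cidec at chr6:113434765-113435014 (minus strand), Lep at chr6:29059971-29060220 (plus strand) and Plin1 at chr7:79732777-79733026 (minus strand).
Adipoq: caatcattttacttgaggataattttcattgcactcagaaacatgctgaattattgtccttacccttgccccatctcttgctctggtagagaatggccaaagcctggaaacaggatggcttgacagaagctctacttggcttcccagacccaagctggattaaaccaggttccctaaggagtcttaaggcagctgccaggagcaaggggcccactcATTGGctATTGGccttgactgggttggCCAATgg
Cidec: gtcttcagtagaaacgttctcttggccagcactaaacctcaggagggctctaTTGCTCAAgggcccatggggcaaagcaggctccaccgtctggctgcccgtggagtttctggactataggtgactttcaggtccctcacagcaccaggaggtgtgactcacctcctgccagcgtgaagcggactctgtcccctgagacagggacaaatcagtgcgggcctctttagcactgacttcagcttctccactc
Lep: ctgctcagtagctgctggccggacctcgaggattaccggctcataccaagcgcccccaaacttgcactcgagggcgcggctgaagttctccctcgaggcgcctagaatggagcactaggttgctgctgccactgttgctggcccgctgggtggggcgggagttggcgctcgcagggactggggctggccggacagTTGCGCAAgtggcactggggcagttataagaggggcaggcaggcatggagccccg
Plin1: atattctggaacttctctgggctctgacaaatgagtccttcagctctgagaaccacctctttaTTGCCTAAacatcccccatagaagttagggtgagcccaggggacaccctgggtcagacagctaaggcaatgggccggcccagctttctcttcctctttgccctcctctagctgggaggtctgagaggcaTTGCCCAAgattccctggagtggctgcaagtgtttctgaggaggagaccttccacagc
TTGCNNAA was found in Cidec, Lep and Plin1, 3 of 8 windows of the listed genes, which cover Adipoq, Cfd, Lep, Pck1, Plin1, Retn and the 2 starts of Cidec, beside 9.56% of all 32851 promoter windows of that length. In Cidec only the window shown held a match, and that of its other start, chr6:113435761-113436010, held no TTGCNNAA. Plin1 held it in 2 places, and the match of Lep reads the same on both strands. CCAAT was found in Adipoq, in 3 places, and in no other of the 8, beside 33.8% of all windows. The exact DR1 element, the paired site of PPARγ with RXR, AGGTCA alone and TATAAA were found in none of the 8, beside 0.0335%, 14% and 12.4% of all windows. At so low a share the absence of DR1 from 8 windows tells nothing, and sites beyond the 250 bases were not searched. A match is a description of letters. The promoter table held no entry for Fabp4 and Cidea.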

How the data were processed

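Gastrocnemius RNA of single mice was measured on Agilent 44k 2-colour arrays. Per the file headers, the deposited scanner files hold spot and local background intensity per channel on a linear scale from Feature Extraction 10.5.1.1 (GEO's processing notes name 10.5.5.1). The authors also deposited log2 values of cHF and cHF+F mice (Cy5 normalized against Cy3 after dim probes were removed), and 8 columns there match no sample and were not used. Median signals were corrected by normexp (offset 50) and normalized within arrays by loess (span 0.3). Flagged spots were set to missing and replicate spots averaged. Probes needed 4 unflagged arrays per group and a signal over background of 2 in both channels. The number of arrays limits precision, and no depth applies.

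Groups followed the labels. The 3 diets were compared in 1 limma 3.58.1 model (R 4.3.3, data.table version 1.17.8), two-sided, with Benjamini-Hochberg adjustment over 15958 probes and a threshold of 0.05. The brightest probe stood for a gene. Scripts were tested on simulated data. Correlations were taken after removal of diet means, with permutations within diets (numpy 2.4.6, scipy 1.17.1, pandas 2.3.3, Python 3.11.15). Figures used matplotlib 3.10.9. Genes were named through accessions (12577 probes) or the scanner file name (2544). All adipocyte transcripts, the 10 genes closest to Adipoq and the 2 highest and 2 lowest rosiglitazone differences of each list were to be named, and Scd1, Rarres2 and other genes given for their r were chosen after their values were seen. A gene that the rule names in the adipokine list is not reported here. The genes and lists were chosen with earlier results of these data known. Alternatives were mean spot signals, no background correction, processed signals, Cy5 alone, span 0.1, median centring, no or a stricter filter, array weights, slides as a block, the methods' t-test, each array left out and the authors' log2 values.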

Additional observations from a re-analysis of the deposited data

Results flagged for a closer look

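Fabp4 in the cHF+F mouse of replicate 5 stood apart from the other 7 mice of its diet, with a log2 ratio of 0.557. Its gap to the nearest mouse was 0.577 of the range of the diet, above the 95% critical value of Dixon's test for 8 samples. The same mouse was the highest of all 24 for Adipoq, Lep, Retn, Cfd and Cidec. Of 24 combinations of gene and diet examined this was the only one, and chance gives about 5% of them.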

How the results depend on the processing

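In every alternative and in every fit without 1 array, 0 adipocyte transcripts were called in each comparison, and 0 in Cy3 alone. The median r of all pairs lay between 0.61 (Cy5 alone) and 0.90 (without slides 1 to 3), and between 0.66 and 0.80 with single arrays left out. The replicate number in the labels is the slide, and the deviations of arrays on 1 slide correlated at -0.11 to 0.64. With the slide as replicate block 0 genes were called, the differences were unchanged by construction, the smallest limma adjusted p of the 8 genes was 0.716 to 0.782 over the 3 comparisons, and the median r was 0.784. Signs of single genes changed in some alternatives, and the cause was not tested. For cHF+ROSI minus cHF, these were Adipoq with no background correction (-0.10), processed signals (-0.13), Cy5 alone (-0.33), span 0.1 (-0.011), median centring (-0.059), array weights (-0.14) and without slides 1 to 3 (-0.25); Cidec with no background correction (-0.032), processed signals (-0.085), Cy5 alone (-0.14), array weights (-0.14) and without slides 1 to 3 (-0.19); Plin1 with Cy5 alone (-0.25) and without slides 1 to 3 (-0.21); Cfd with Cy5 alone (-0.12); and Retn with span 0.1 (0.00049). For cHF+F minus cHF they were Retn with array weights (-0.073) and Cidea without slides 1 to 3 (0.062). For cHF+F minus cHF+ROSI they were Adipoq with no background correction (0.0040), processed signals (0.021), Cy5 alone (0.12) and without slides 1 to 3 (0.21), Fabp4 with no background correction (-0.10), processed signals (-0.065), Cy5 alone (-0.10), span 0.1 (-0.078), median centring (-0.15) and without slides 1 to 3 (-0.033), Plin1 with Cy5 alone (0.021) and without slides 1 to 3 (0.16), Retn with array weights (-0.065), and Lep (0.19) and Cidec (0.13) without slides 1 to 3. With 1 array left out, cHF+ROSI minus cHF ranged from -0.15 to 0.19 for Adipoq, -0.00023 to 0.22 for Cfd, -0.084 to 0.29 for Cidec, -0.11 to 0.15 for Lep, -0.089 to 0.12 for Retn, 0.012 to 0.33 for Plin1, -0.27 to -0.095 for Fabp4 and -0.24 to -0.037 for Cidea. The cHF+F minus cHF values ranged from -0.33 to 0.085 for Adipoq, -0.12 to 0.034 for Cidea, -0.40 to 0.11 for Cidec, -0.42 to 0.016 for Lep, -0.24 to 0.10 for Plin1 and -0.14 to 0.17 for Retn. The cHF+F minus cHF+ROSI values ranged from -0.35 to 0.058 for Adipoq, -0.020 to 0.19 for Cidea, -0.47 to 0.022 for Cidec, -0.10 to 0.11 for Fabp4 and -0.13 to 0.18 for Retn. A minimum signal over background of 3 left 7 genes, without Lep. The methods' t-test gave 0 of the 8 genes, with their fold minimum of 1.5, without it and after Benjamini-Hochberg adjustment. In the authors' log2 values, limma on the cHF and cHF+F columns gave 0 calls and differences from -0.33 (Lep) to 0.29 (Cfd). Dim signals limit Lep and Retn most.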

Other observations

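When the Adipoq level of each mouse was added to the 3-diet model as a covariate, which was chosen after seeing the data, differences between diets were those at an equal Adipoq ratio. Whether that ratio stands for the amount of adipocyte RNA in each diet was not tested. The other adipocyte transcripts stayed without a call: Plin1 differed by 0.15 (SE 0.10, against 0.33 without the covariate) and Fabp4 by -0.18 (SE 0.13) between cHF+ROSI and cHF. In cHF+F minus cHF 1 of 15957 probes was called, and in cHF+F minus cHF+ROSI also 1, and both were Scd1, the stearoyl-CoA desaturase, which the study had picked on these arrays. Scd1 differed between cHF+F and cHF by -0.95 (SE 0.15; limma adjusted p 0.016) with the covariate and by -0.998 (SE 0.24; limma adjusted p 0.274) without it. Between cHF+F and cHF+ROSI it differed by -0.93 (SE 0.15; limma adjusted p 0.0223) with and by -0.98 (SE 0.24; limma adjusted p 0.434) without it. Hp, haptoglobin, was lower in mean in cHF+ROSI than in cHF by a log2 difference of -0.77 (SE 0.15; unadjusted limma p 3.03e-05, adjusted p 0.484) with the covariate, and by -0.76 (SE 0.36) without it. The study had already listed Hp as lower under rosiglitazone on these arrays. Between cHF+F and cHF+ROSI Hp differed by 0.80 (SE 0.15; limma adjusted p 0.136) with the covariate. The nearest gene to Cidea was Rmdn1 (r = 0.81), followed by Trpv4 (0.80), while its closest adipocyte transcript, Cidec, was number 3615 of 10890.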
